A study of Rattus norvegicus with 6 samples.

Results

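The peroxiredoxins and the thioredoxin system were described through 9 genes, Prdx1, Prdx2, Prdx3, Prdx4, Prdx5, Prdx6, Txn1, Txnrd1 and Srxn1, chosen by name from 32883 genes in the deposited matrices. A row was found under the symbol of 8 of them, and Srxn1, which encodes the sulfiredoxin that repairs over-oxidised peroxiredoxins, had no row under that symbol and is given no value. Each gene was measured in UPM, the number of its unique molecular identifiers (UMIs, counted transcript molecules) in every 1000000 UMIs of all genes, summed over the cells of 1 class in 1 rat.

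Pancreatic cells of 6 male Wistar rats were released with collagenase P given through the common bile duct, passed over a Histopaque gradient meant to enrich islets, and profiled by droplet single-cell RNA sequencing, with 1 library per rat. The young group was 2 rats of 2 months on normal diet. The old group was 2 rats of 20 months that had stayed on normal diet for 18 months, and the HFHF-old group was 2 rats of 20 months that had eaten a high-fat high-fructose diet for the same 18 months. The comparison of HFHF-old with old addressed the diet at equal age, and that of old with young addressed age on normal diet. With 2 rats a group, p-values for groups set each difference against the spread between these few rats. The 3 comparisons shared rats with each other.

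The libraries held 77387928 to 166875258 UMIs, and 75201 of 78024 barcodes were kept. The limit on gene number was set over all libraries together. HFHF-old 1 lost the largest share, with 11990 of 13250 barcodes kept, against 7381 of 7617 in old 1 and 16388 of 16896 in old 2. The median UMI count of kept cells was lowest in old 2, at 2537, and highest in HFHF-old 1, at 9391.5. Barcode sequences found in more than 1 library numbered 584. Named classes took 52503 cells, and 22698 cells stayed in none, among them a cluster of 2646 cells with acinar markers that was left unnamed because 99.06% came from young 2. The names beta, alpha, PP (pancreatic polypeptide), acinar, ductal, fibroblast, endothelial and immune stand for cells that resemble these types by marker transcripts. In the ductal class the markers Krt19 and Krt7 were low, at 7.8 to 27.4 and 7.66 to 35.1 UPM. That class therefore rests on Epcam, Sox9 and the other listed markers.

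HFHF-old 2 held 3 beta, 3 alpha, 0 PP, 2 ductal and 4 macrophage cells, under the minimum of 10 cells, so the HFHF-old group was 1 rat in these classes. The single HFHF-old rat also stood apart within islet classes. Of its 168 beta cells, 160 lay in a sub-cluster led by Lrrc4c, Anks1b and Cntn3 that drew 79.2% of its cells from this rat, and 19 of its 20 alpha cells lay in a sub-cluster led by Agr3, Cck and Gast rather than by Gcg. Of its 477 acinar cells, 387 lay in a cluster that drew 98.7% of its cells from that library.

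Peroxiredoxins reduce hydrogen peroxide and organic peroxides through a reactive cysteine. Most of them are returned to the reduced state by thioredoxin, which is reduced in turn by the selenoprotein thioredoxin reductase with NADPH as electron donor. Prdx1 and Prdx2 are mainly cytosolic, Prdx3 is mitochondrial, Prdx4 lies in the endoplasmic reticulum where it can pass oxidising equivalents to protein folding, Prdx5 is spread over several compartments, and Prdx6 relies on glutathione. Beta cells are known for low activities of several other peroxide-removing enzymes, so this system is often studied in islets. Transcription of Txnrd1, Prdx1 and Srxn1 is known to respond to Nrf2, a factor that binds the antioxidant response element.

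The promoters of 3 members are shown because the results turn on these genes, Prdx4 for its distribution over cell types, Txnrd1 for its pattern in HFHF-old rats and Prdx1 for its contrast with Txnrd1. Each sequence is the 250 bases upstream of the annotated start, read 5′ to 3′ on the gene's strand, from RefSeq on GRCr8. That build differs from the one used for counting. Capitals mark the antioxidant response element core TGACNNNGC, searched on both strands, in Prdx1 and Txnrd1, and the E-box CACGTG in Prdx4.
Prdx1, chr5:135383656-135383905, plus strand: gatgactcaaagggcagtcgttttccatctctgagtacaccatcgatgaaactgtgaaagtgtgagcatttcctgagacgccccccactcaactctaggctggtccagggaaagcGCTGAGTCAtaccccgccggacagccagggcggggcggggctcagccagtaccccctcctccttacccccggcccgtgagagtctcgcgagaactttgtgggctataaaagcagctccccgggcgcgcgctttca
Txnrd1, chr7:22755905-22756154, minus strand: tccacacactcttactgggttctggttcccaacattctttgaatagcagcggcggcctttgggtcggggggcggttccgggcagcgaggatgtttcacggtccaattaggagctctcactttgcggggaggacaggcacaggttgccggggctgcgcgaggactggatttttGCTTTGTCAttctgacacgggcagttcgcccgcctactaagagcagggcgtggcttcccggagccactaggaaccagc
Prdx4, chrX:43878483-43878732, plus strand: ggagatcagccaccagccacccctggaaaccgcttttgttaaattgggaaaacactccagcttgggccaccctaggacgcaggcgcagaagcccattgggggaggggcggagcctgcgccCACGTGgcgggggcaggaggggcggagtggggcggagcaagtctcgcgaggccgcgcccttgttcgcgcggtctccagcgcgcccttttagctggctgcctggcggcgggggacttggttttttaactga
The core matched on the reverse strand in both Prdx1 and Txnrd1. At these places the printed strand reads GCTGAGTCA, 135 to 127 bases upstream of the start, in Prdx1 and GCTTTGTCA, 78 to 70 bases upstream, in Txnrd1. The core was present in 2 of 9 promoter entries, 2 for Txnrd1 and 1 for each other member except Prdx6, and in 10.1% of all 33469 entries of the same length. A second Txnrd1 entry, chr7:22764852-22765101, held no match. CACGTG was in 1 of the 9 entries and in 5.59% of all. These matches describe letters in the window and say nothing on binding.

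Prdx4 (ENSRNOG00000003763), the peroxiredoxin of the endoplasmic reticulum, was highest in acinar cells, the digestive enzyme producers, in every rat. Acinar Prdx4 stood at 346 and 423 UPM in young rats, 365 and 409.9 in old rats, and 452 and 653 in HFHF-old rats. PP cells came next by their mean, at 111, 133, 170.2, 129 and 119 UPM in young 1, young 2, old 1, old 2 and HFHF-old 1, but exceeded fibroblasts in only 2 of 5 rats (exact permutation p = 1.0). The ranges of acinar and PP cells did not overlap. The difference within rats was 1.59 ± 0.30 (SD) on the scale of log2(UPM + 1), acinar higher in 5 of 5 rats (exact two-sided sign-flip permutation test, p = 0.0625, the smallest that 5 rats allow).

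Beta cells held the lowest Prdx4 level of the 8 classes, at 16.6 and 18.2 UPM in young rats, 14.9 and 20.5 in old rats and 12.9 in HFHF-old 1. The immune class, next above beta, ranged from 37 to 64.7 and did not overlap with it. Insulin, glucagon, other hormones and digestive enzymes take up much of the RNA of secretory cells, 58.6 to 83.1% of beta UMIs and 57.3 to 74.9% of acinar UMIs, which lowers every other gene's share. With those genes left out of the total, acinar Prdx4 rose to 908 to 1801 UPM and beta Prdx4 to 31.1 to 108. Acinar stayed above every other class in all rats, whereas beta then overlapped with the immune and endothelial classes.

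**Figure D1:**
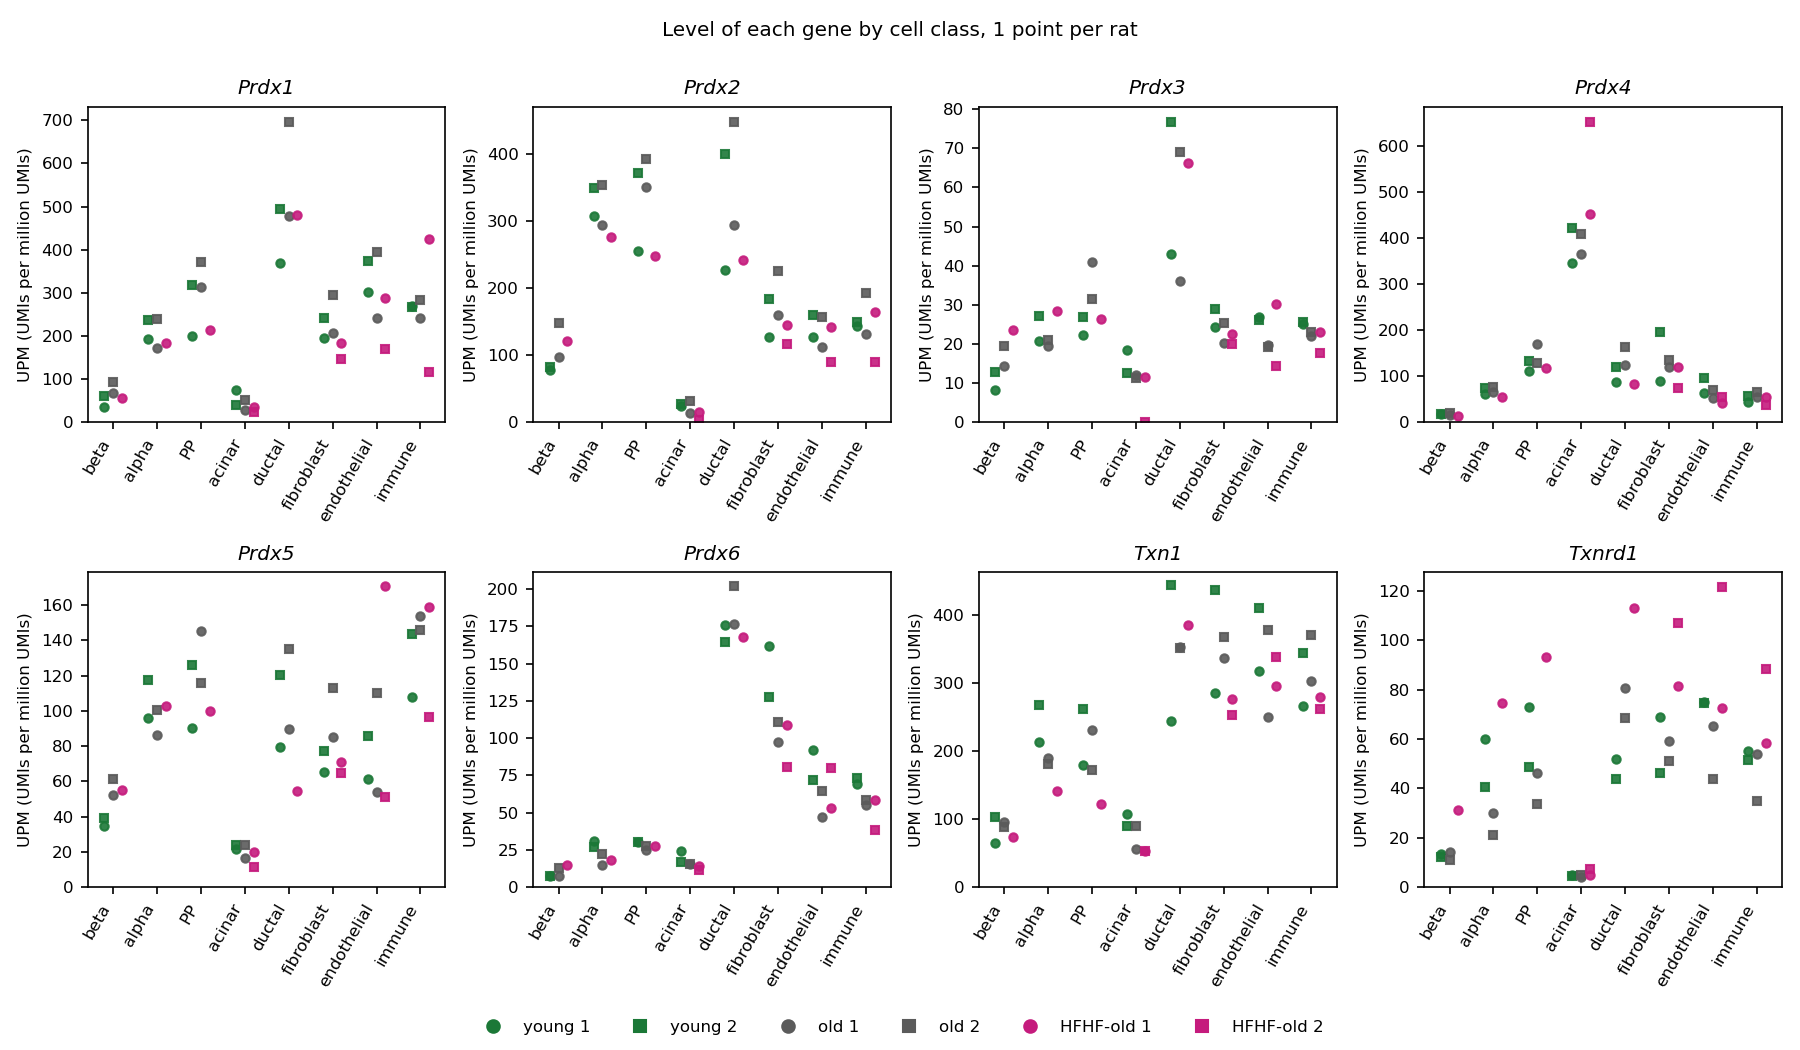
Level of each member in UPM (vertical axes, linear, from 0) in 8 cell classes, with 1 point per rat, colours for groups and circles or squares for replicates 1 and 2. Prdx4 stands out in acinar cells (346 to 653) and Prdx6 in ductal cells (164 to 202).

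Prdx6 (ENSRNOG00000002896), the glutathione-dependent member, was highest in ductal cells. Its ductal level was 176 and 164 UPM in young rats, 176 and 202 in old rats and 168 in HFHF-old 1, a narrow spread around a mean of 177 ± 14.7 (SD, n = 5). Fibroblasts followed at 162, 128, 97.1, 111, 109 and 80.8 in young 1, young 2, old 1, old 2, HFHF-old 1 and HFHF-old 2. Ductal cells exceeded fibroblasts in 5 of 5 rats, by 0.56 ± 0.32 (SD) on the log2 scale, which is also at the smallest exact permutation p of 0.0625.

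Fibroblasts in turn exceeded endothelial cells, which ranged from 47.2 to 92.3 UPM, by 0.74 in 6 of 6 rats (exact two-sided sign-flip permutation test, p = 0.03125). With all UMIs in the total this was the 1 pair of 56 neighbouring pairs over all members with an unadjusted p under 0.05, against 4 of 56 with hormone and enzyme genes left out, and 0 pairs passed after Benjamini-Hochberg adjustment with either total. Pairs with 5 rats could not reach an unadjusted p under 0.05, as their smallest exact permutation p is 0.0625. Too few pairs had 6 rats, whose smallest is 0.03125, for any pair to pass the adjustment. Beta, alpha, PP and acinar cells all lay under the lowest fibroblast and endothelial values. Without hormone and enzyme genes they stayed under the lowest fibroblast value, 80.9. Acinar, PP and beta cells, up to 63.5, 56.0 and 51.4, then overlapped with endothelial cells, which started at 48.7. The low level in beta cells, 7.44 to 14.5, remained under the ductal level after the hormone and enzyme genes were left out (38.5 ± 9.19 against 179.6 ± 14.5, SD, n = 5 each).

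Prdx1 (ENSRNOG00000017194), the abundant cytosolic peroxiredoxin, was also highest in ductal cells among the 8 classes. Ductal Prdx1 was 369 and 493 UPM in young rats, 479 and 697 in old rats and 479 in HFHF-old 1. Endothelial cells, next in order, gave 301, 373, 242, 395, 288 and 170.1 in the rats from young 1 to HFHF-old 2. The classes overlapped across rats, but within each rat ductal was higher, by 0.65 ± 0.29 (SD, 5 of 5 rats, exact permutation p = 0.0625). Macrophages, counted within the immune class, averaged 521 UPM against 504 in ductal cells and were higher in 3 of 5 rats. With hormone and enzyme genes left out, PP cells drew level with ductal cells, which were then higher in only 2 of 5 rats.

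Prdx2 (ENSRNOG00000003520), the other cytosolic member, had its highest levels in PP, alpha and ductal cells together. These averaged 323 ± 67.5, 315 ± 34.3 and 322 ± 97.7 UPM (SD, n = 5 each), and their order changed from rat to rat. Ductal cells exceeded fibroblasts by 0.91 ± 0.15 on the log2 scale in 5 of 5 rats. Acinar cells were lowest, at 3.75 to 31.9 UPM, below beta cells (77.8 to 147) in every rat that held both. The acinar level stayed lowest without hormone and enzyme genes, at 56 ± 27.9 (SD, n = 6), while beta cells then averaged 413 ± 120.1 (n = 5).

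Prdx3 (ENSRNOG00000010958), the mitochondrial member, was low in all classes and averaged highest in ductal cells, at 42.9 and 76.7 UPM in young rats, 36.1 and 69 in old rats and 66.3 in HFHF-old 1. Those ductal values rested on 14 to 91 UMIs per rat. PP cells reached 40.9 in old 1 and exceeded ductal cells in that rat. The other classes lay between 8.11 and 30.1, except acinar cells of HFHF-old 2, where 0 of 266376 UMIs were Prdx3, which allows a level of up to 11.3 (3 UMIs, counting error only). Without hormone and enzyme genes, beta cells, at 59.8 ± 17.2 (SD, n = 5), and ductal cells, at 59 ± 18.1, had the highest means.

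Prdx5 (ENSRNOG00000021125), which is found in several compartments, was highest on average in immune cells, at 108 and 144 UPM in young rats, 154 and 146 in old rats and 159 and 96.7 in HFHF-old rats. PP cells lay at 90.1 to 145. Immune cells were higher within 5 of 5 rats, by 0.31 ± 0.22 (SD, exact permutation p = 0.0625), but the order turned once hormone and enzyme genes were left out, where PP cells averaged 192 ± 47 and immune cells 136 ± 26.5. Acinar cells were lowest, at 11.3 to 24.1.

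Txn1 (ENSRNOG00000012081), the cytosolic thioredoxin, was spread evenly over non-secretory classes. Ductal, endothelial, fibroblast and immune cells averaged 356 ± 72.4, 332 ± 57.7, 326 ± 68.7 and 304 ± 44.5 UPM (SD, n = 5 for ductal, 6 for the others), which lay within each other's spread. Beta cells (64.9 to 102) and acinar cells (52.6 to 107) were lowest. Without hormone and enzyme genes the beta mean became 356 ± 157 (SD, n = 5), inside the range of the non-secretory classes, so the low beta level was not seen with that denominator.

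**Figure D2:**
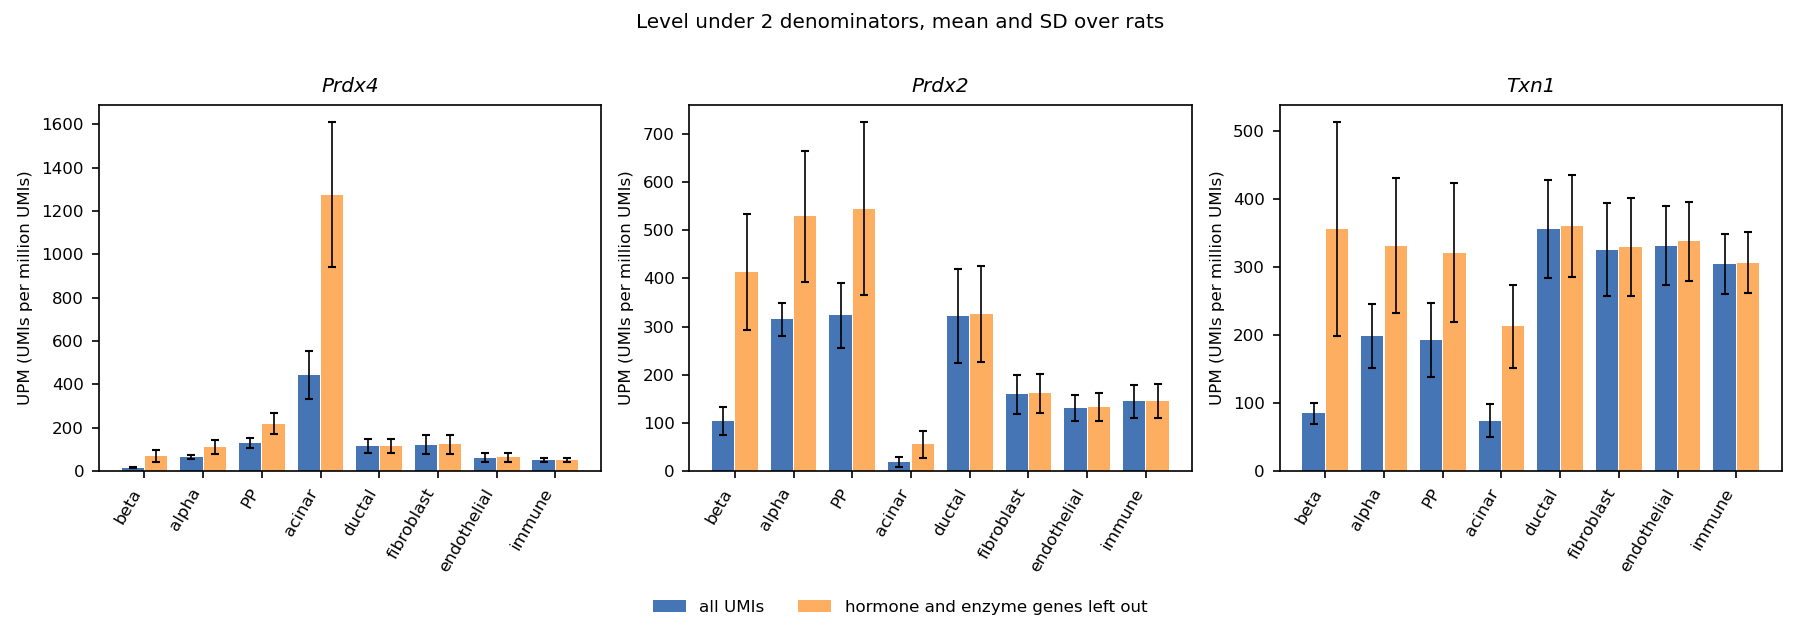
Mean level and SD over rats (vertical axis, UPM, linear) of Prdx4, Prdx2 and Txn1 in 8 cell classes with all UMIs (blue) and with hormone and enzyme genes left out of the total (orange). Acinar Prdx4 stays far above the rest (442 and 1274), while the beta level of Txn1 goes from 85 to 356.

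Txnrd1 (ENSRNOG00000009088), the cytosolic thioredoxin reductase, was lowest in acinar cells, with only 2 to 42 UMIs per rat and levels of 4.17 to 7.51 UPM. Endothelial and ductal cells had the highest means of the 8 classes, 75.4 ± 25.5 (SD, n = 6) and 71.5 ± 27.2 (n = 5), and did not differ beyond their spread. NK cells, counted within the immune class, averaged 87.6 ± 19.2 (SD, n = 6) and exceeded endothelial cells in 5 of 6 rats. Without hormone and enzyme genes PP cells came first, at a mean of 94.0 against 76.7 in endothelial and 72.5 in ductal cells, and exceeded endothelial cells by 0.44 ± 0.34 (SD) on the log2 scale in 5 of 5 rats (exact permutation p = 0.0625). Among the members, 3 of 8 had 1 of the 8 classes above every other in all rats that held both (Prdx1 and Prdx6 in ductal, Prdx4 in acinar cells), for Prdx1 only with macrophages pooled into the immune class. Without hormone and enzyme genes this was so for 2, Prdx4 and Prdx6. The share of all genes with such a class is not given, so these counts say nothing particular about the members.

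Comparison of the groups within each class gave no member call. A call needed a fold change over 1.5 either way and, with edgeR, p under 0.05 once adjusted for every gene tested in that class. In HFHF-old against old, 0 of 64 tests (8 members in 8 classes) were called. The share of all genes called there was 0.231% in beta, 0.683% in alpha, 0.0609% in PP, 0.33% in ductal, 0.0144% in fibroblast and 0% in acinar, endothelial and immune cells. In HFHF-old against young 0 of 64 were called, against 0.376% of all genes in beta, 0.799% in alpha, 0.0813% in PP, 0.1% in ductal, 0.0144% in fibroblast cells and 0% in the rest. In old against young 0 of 64 were called, against 0.173, 0.0916, 0.0711, 1.16 and 0.0287% of all genes in the same classes and 0% in the rest. At an unadjusted edgeR p under 0.05 there were 8, 8 and 0 of 64 tests, or 12.5, 12.5 and 0%, where all genes of the 8 classes had 7.44, 7.44 and 4.54% and single classes up to 14.7, 12.4 and 6.95%. DESeq2 gave 0 calls with 10, 7 and 0 tests under that limit, against 4.74, 5.02 and 3.01% of all genes. The lowest edgeR adjusted p of any member in these 8 classes was 0.236.

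Fitted log2 fold changes in HFHF-old against old were negative in 50 of 64 tests and positive in 14, and against young negative in 49 and positive in 15, while old against young had 39 positive and 25 negative. Of all genes in these classes 49.2% were negative in HFHF-old against old, 50.4% in HFHF-old against young and 49.0% in old against young. The HFHF-old rats are the same in the first 2 counts. Prdx1 and Prdx2 were negative in 8 of 8 classes in HFHF-old against old, with medians of −0.57 and −0.81, and Txnrd1 was positive in 8 of 8, with a median of 0.68. Prdx5 was positive in 8 of 8 classes in old against young, between 0.17 and 0.48. Over the alternatives in HFHF-old against old, Txnrd1 kept its sign in all 8 classes, whereas Prdx1 turned positive in acinar and immune cells and Prdx2 in endothelial cells on leaving out old 2 or HFHF-old 2. In old against young Prdx5 turned negative in 5 of 8 classes on leaving out young 1 or old 2, down to −0.52 in endothelial cells without old 2. None of these directions is a call. The 8 classes of a rat share 1 library, and the share of all genes with 1 sign in all 8 is not given.

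**Figure D3:**
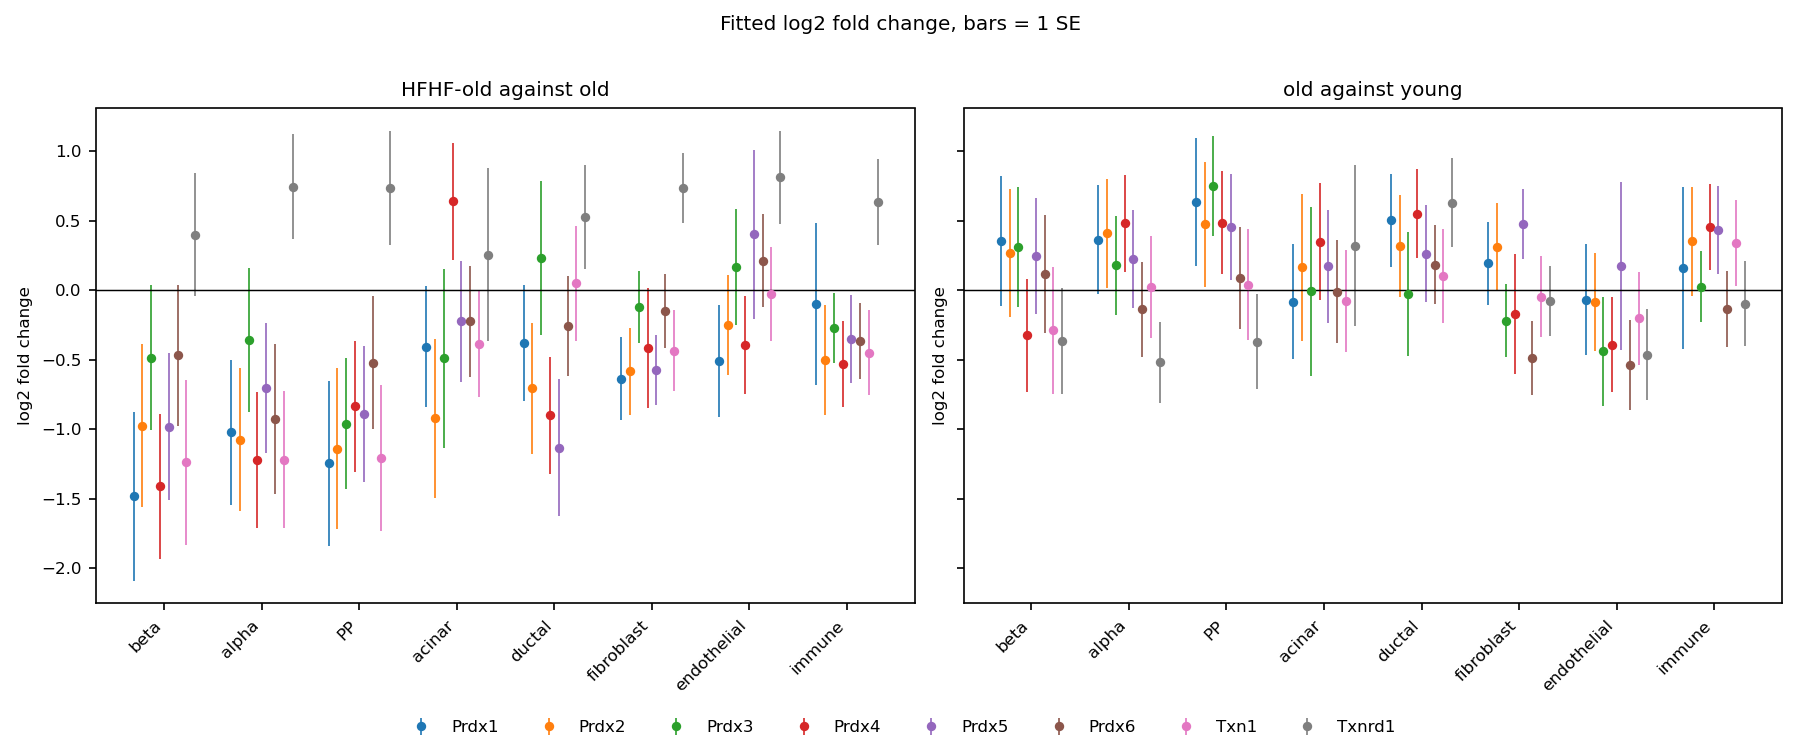
Fitted log2 fold change (vertical axis) of each member (colours) in 8 cell classes, HFHF-old against old on the left and old against young on the right, with bars of 1 SE. Txnrd1 lies above 0 in all 8 classes on the left (0.25 to 0.81), where most points of the other members lie below 0.

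Prdx4, Prdx1 and Txn1 had their lowest p-values in beta cells. Prdx4 in HFHF-old against young had a log2 fold change of −1.74 (SE 0.53, edgeR adjusted p = 0.236). Prdx1 in HFHF-old against old had −1.48 (SE 0.61, adjusted p = 0.698, edgeR), with levels of 67.8 and 93.4 UPM in old rats and 55.7 in HFHF-old 1. The single HFHF-old rat was below both old rats, though within the young range of 35.8 to 59.7. With all UMIs in the total, 3.69% of genes were likewise below both old rats and 84.2% above. With hormone and enzyme genes left out, 51.1% were above. The share below is not given for that total, so how common the order is there is not known. With those genes left out HFHF-old 1 was the lowest rat, at 135 against 156 and 353 in young and 255 and 372 in old rats. It was not below both old rats within either beta sub-cluster, with either total. In the sub-cluster that held 160 of its 168 beta cells Prdx1 was 53.2 UPM in HFHF-old 1 and 50.7 and 127 in old 1 and old 2, on 18 and 10 UMIs in the old rats, and in the other it was 95.8 in HFHF-old 1, from 8 cells, and 69.6 and 93.1.

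Beta Txn1 in HFHF-old against young was −1.53 (SE 0.60, edgeR adjusted p = 0.478), although its 73.7 UPM in HFHF-old 1 lay between the young values of 64.9 and 102. When hormone and enzyme genes were left out it was 178, below the young values of 284 and 605. With that total 47.8% of genes were above both young rats in HFHF-old 1, and the share below is not given. The TMM normalisation factor of that rat, which rescales library size, was 1.84 in beta cells against 0.640 to 1.07 in the others, and its hormone and enzyme share was 58.6% against 73.4 to 83.1%. Within the sub-cluster that held most of its beta cells, Prdx4 without hormone and enzyme genes was 30.7 UPM in HFHF-old 1 on 74 UMIs, and 60.4, 24.2 and 96.9 in young 1, old 1 and old 2 on 4, 5 and 4 UMIs, too few to place the rat among them. With the same total, Txn1 there was 174.6 in HFHF-old 1 and 105.6 in young 1, on only 7 UMIs in young 1. In the other sub-cluster Txn1 was 269.6 in HFHF-old 1, on 25 UMIs, below 305.2 and 613.7 in young rats. Whether the rat's diet or its cell make-up set the beta values cannot be told apart.

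The remaining lowest p-values were spread over classes and contrasts. Alpha Prdx2 in HFHF-old against old was −1.08 (SE 0.51, edgeR adjusted p = 0.359), with 293 and 354 UPM in old rats and 276 in HFHF-old 1. In the sub-cluster that held 19 of the 20 alpha cells of HFHF-old 1, Prdx2 was 276 in that rat and 272 and 283 in old rats, so it then lay between them, whereas without hormone and enzyme genes it was 383 and stayed below their 449.6 and 434. Ductal Prdx5 in the same contrast was −1.13 (SE 0.49, edgeR adjusted p = 0.566), with 89.8 and 135 in old rats and 54.6 in HFHF-old 1, on 14 UMIs in 20 cells. Fibroblast Prdx6 in HFHF-old against young was −0.64 (SE 0.27, edgeR adjusted p = 0.626), from 162 and 128 in young to 109 and 80.8 in HFHF-old rats, which did not overlap. PP Prdx3 in old against young was 0.75 (SE 0.36, edgeR adjusted p = 0.999), from 22.2 and 26.8 to 40.9 and 31.5. Over whole classes the groups compared did not overlap in any of these cases, an order that 17.3% of genes showed in that direction in alpha, 36.7% in ductal, 15.6% in fibroblast and 5.8% in PP cells, and none was called.

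Txnrd1 was the member whose level in HFHF-old lay above that of old in every class. In fibroblasts it was 59.1 and 51.2 UPM in old rats and 81.3 and 107 in HFHF-old rats, with young rats at 68.7 and 46.1. In endothelial cells it was 65.2 and 43.8 in old and 72.4 and 122 in HFHF-old rats, with young at 75 and 74.5. In ductal cells it was 80.5 and 68.3 in old rats and 113 in HFHF-old 1, with young at 52.1 and 43.8. The ductal value of HFHF-old 1 rested on 29 UMIs, and that of young 2 on 8 UMIs in 16 cells. HFHF-old did not overlap with old in any of these classes, while endothelial HFHF-old overlapped with young.

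The same held in the secretory classes. Beta Txnrd1 was 14.4 and 11.1 UPM in old rats and 31.4 in HFHF-old 1, with young rats at 13.3 and 12. Alpha Txnrd1 was 29.8 and 21.2 in old rats, 74.7 in HFHF-old 1 and 59.8 and 40.3 in young rats. PP Txnrd1 was 46.2 and 33.5 in old rats, 93.3 in HFHF-old 1 and 72.9 and 48.4 in young rats. HFHF-old 1 was the highest rat in all 3 islet classes, where 93.5% of genes in beta, 49.3% in alpha and 50.6% in PP cells were also above both young rats in it. Old rats were below young rats in alpha and PP cells, as were 42.9% and 21.0% of genes there. In acinar cells the counts of 11 and 7 UMIs in old and 42 and 2 in HFHF-old rats gave 4.17, 4.96, 5.02 and 7.51, where the nearest values of the groups lay closer than 1 UMI is worth in any of these rats.

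Of 4217 genes tested in all 8 classes, 12 (0.285%) had every HFHF-old rat above every old rat in all of them, and with hormone and enzyme genes left out 7 of 4188 (0.167%) did. Txnrd1 was among these in both. In single classes the same order was more common, at 84.2% of genes in beta, 70.4% in alpha, 59.2% in PP, 8.02% in acinar, 42.9% in ductal, 18.4% in fibroblast, 14.8% in endothelial and 19.6% in immune cells. The fitted log2 fold change was largest in endothelial cells, 0.81 (SE 0.33, edgeR adjusted p = 0.954), and fibroblasts had 0.73 (SE 0.25, edgeR adjusted p = 0.652). The lowest p for Txnrd1 was in ductal cells of HFHF-old against young, 1.15 (SE 0.40, edgeR adjusted p = 0.589). None passed the threshold, the 8 classes of a rat share 1 library, and HFHF-old was 1 rat in 4 of the 8.

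**Figure D4:**
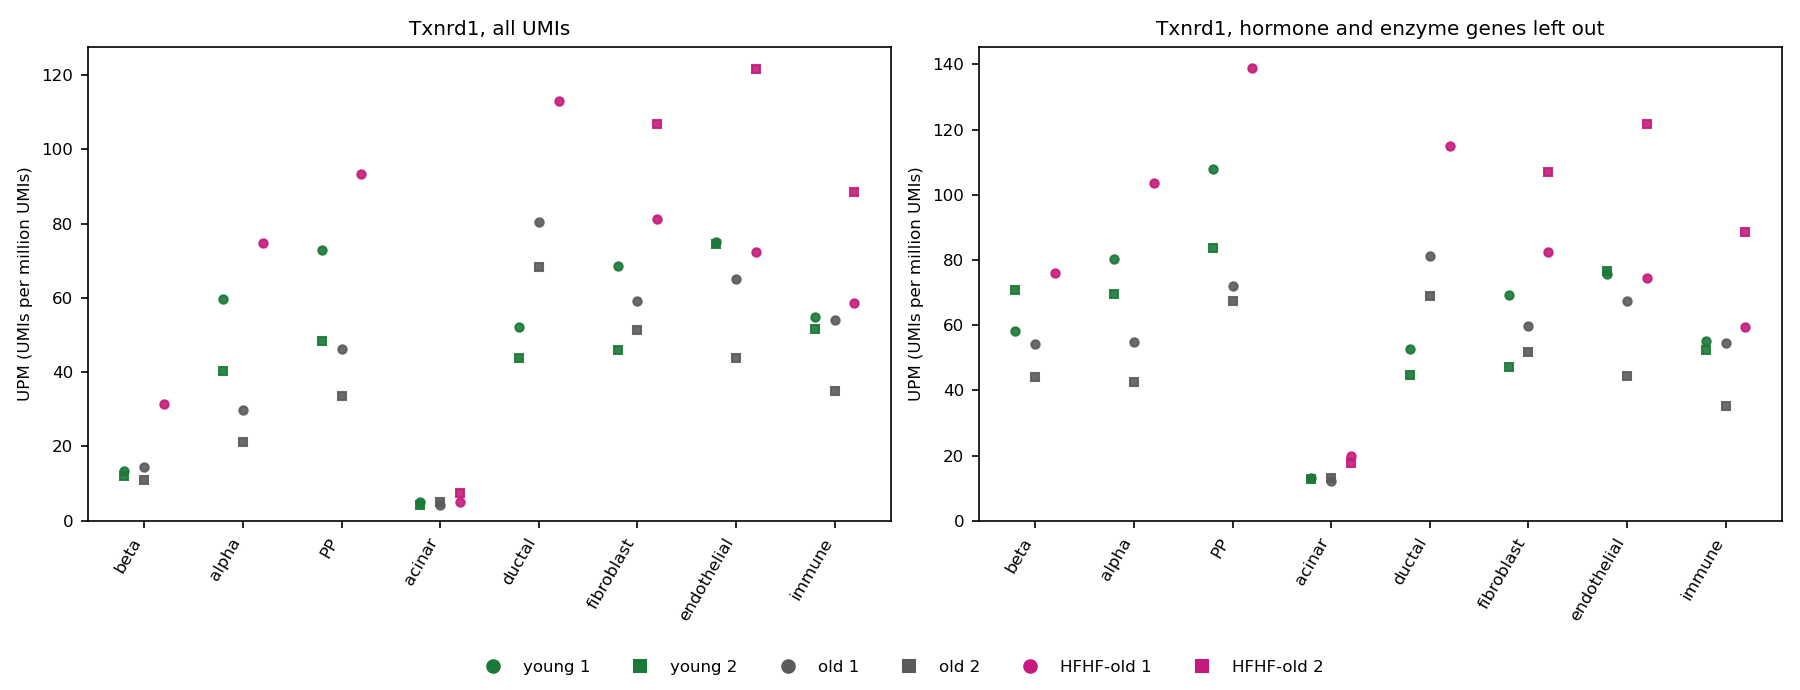
Txnrd1 level in UPM (vertical axes, linear, from 0) in 8 cell classes, 1 point per rat, with all UMIs on the left and with hormone and enzyme genes left out on the right. HFHF-old points (magenta) lie above the old points (grey) in each class, for example 81.3 and 107 against 59.1 and 51.2 in fibroblasts.

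The cell make-up of islet classes differed between these rats. In the alpha sub-cluster that held 19 of the 20 alpha cells of HFHF-old 1, Txnrd1 was 74.8 UPM in that rat, 43.7 and 47.9 in old rats and 66.5 and 82.3 in young rats, so HFHF-old 1 remained above old and lay within the young range. In the beta sub-cluster that held most of the beta cells of HFHF-old 1, Txnrd1 was 33.0 in that rat. It was 45.5 and 22.6 in young 1 and old 1, on 6 and 8 UMIs. Old 2 had 0 UMIs there in 8 cells, which allows up to 38.0 UPM (3 UMIs, counting error only). In the other beta sub-cluster HFHF-old 1 had the lowest value, 5.64 UPM, on only 2 UMIs in 8 cells. Old rats stood there at 13.57 and 11.14, and young rats at 11.62 and 12.03. HFHF-old above old, the order of the whole beta class, was thus not seen in that sub-cluster. Old 2, the library with the lowest median UMI count, gave the lowest Txnrd1 level of all rats in beta, alpha, PP, endothelial and immune cells. The medians of both HFHF-old libraries, 9391.5 and 8599, lay above the 7739 and 2537 of the old libraries. Among rats with at least 10 beta cells, HFHF-old 1 had the lowest beta median, 37562.5 against 61525 and 40717 in old rats. In endothelial cells HFHF-old rats had 3640 and 6389, and old rats 4919 and 1497. HFHF-old 2, which had the highest Txnrd1 in endothelial cells and fibroblasts, differed there in some markers. Its endothelial Vwf was 726 UPM, against 45.1 to 317 in the other rats, whereas Tek, at 597, lay within their range. Its fibroblast Col1a1 was 352 UPM, against 449 to 7372 in the others, whereas Dcn, at 9969, lay within their range. Whether depth or cell make-up bears on the Txnrd1 order was not tested.

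The immune class was pooled from several cell types whose shares differed between rats. NK-like cells made up 84.5% of immune cells in HFHF-old 2 and 13.7 to 22.5% in the others, and macrophage-like cells 0.0415% against 18.8 to 52.1%. Pooled immune Prdx1 was 269 and 267 UPM in young rats, 240.2 and 283 in old rats, and 424 and 117 in HFHF-old rats. The HFHF-old rats thus held both the highest and the lowest value.

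Separated by type, Prdx1 levels of the HFHF-old rats lay close together in NK and T cells, while HFHF-old 2 held too few macrophages for a value. Macrophage Prdx1 was 432 and 444 UPM in young rats, 523 and 584 in old rats and 622 in HFHF-old 1, in that order without overlap, and 46.5% of genes likewise had HFHF-old above old there and 19.4% had old above young. NK Prdx1 was 156 and 165 in young, 146 and 206 in old and 101 and 117 in HFHF-old rats, and T-cell Prdx1 was 152 and 179.5, 117 and 181, and 90.3 and 109. HFHF-old was lowest in both lymphoid types, and 18.3% of genes in NK and 21.4% in T cells likewise had HFHF-old below old, and 24.2 and 24.8% below young. Over macrophage, T and NK cells, 0 of 24 tests were called per contrast (edgeR), with 7 of 24 at an unadjusted p under 0.05 in HFHF-old against old, 3 in HFHF-old against young and 2 in old against young, or 29.2, 12.5 and 8.33% against 13.7, 17.6 and 10.2% of all genes in these types. DESeq2 gave 0 calls with 6, 3 and 1 under that limit, against 11.0, 13.3 and 7.64% of all genes. The lowest edgeR adjusted p was 0.145, for macrophage Txnrd1 in HFHF-old against young (log2 fold change 0.59). The lowest DESeq2 adjusted p of any member was 0.0622, in HFHF-old against old. The gene and cell type of that DESeq2 value are not given here. All genes were called at 0.101, 2.27 and 0.362% in macrophages in these contrasts, at 0, 0.16 and 0.447% in T cells, and at 0, 0.00888 and 0% in NK cells.

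Txnrd1 in the pooled immune class was 54.1 and 34.9 UPM in old and 58.5 and 88.4 in HFHF-old rats. In NK cells it was 93.3 and 51.7 in old and 107 and 93.3 in HFHF-old rats, and in macrophages 57.3 and 51.2 in old and 55.7 in HFHF-old 1. HFHF-old 1 therefore lay between the old rats in macrophages, and HFHF-old 2 matched old 1 in NK cells. T cells did separate, with 32.1 and 37.6 in old and 69 and 64.5 in HFHF-old rats, an order that 32.0% of genes showed. Without HFHF-old 1, which leaves the NK-rich HFHF-old 2 alone in its group, edgeR called 2 members in the pooled immune class against old, Prdx1 at −1.22 (adjusted p = 0.0236) and Txnrd1 at 0.95 (adjusted p = 0.0372), and 3 against young. In that fit 25.1% of all immune genes were called against old and 28.5% against young. Diet and immune make-up cannot be told apart in these values.

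**Figure D5:**
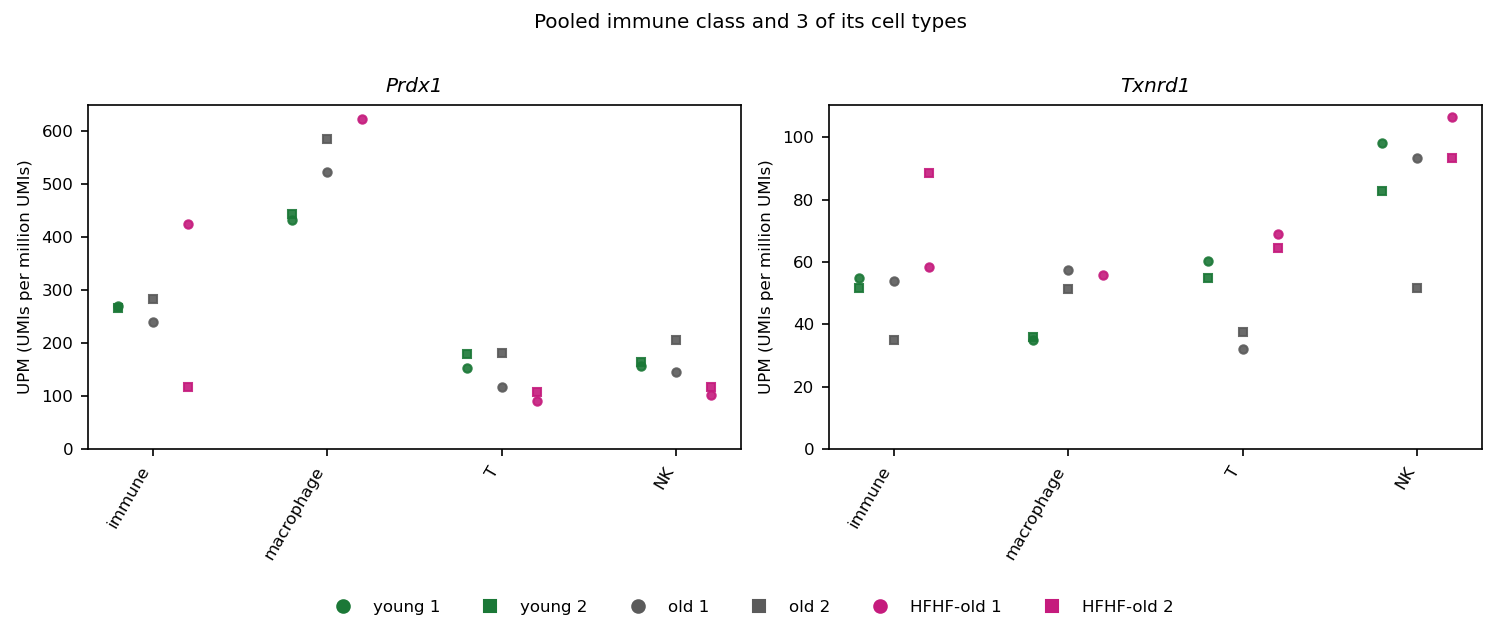
Level of Prdx1 and Txnrd1 in UPM (vertical axes, linear, from 0) in the pooled immune class and in macrophage, T and NK cells, 1 point per rat. The HFHF-old rats are far apart in the pooled class (424 and 117 for Prdx1) and close together in T cells (90.3 and 109) and NK cells (101 and 117).

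Other genes of the pathway were read from 3 lists. Of the Nrf2 target list, 116 tests per contrast over the 8 classes gave 1 call in each comparison with HFHF-old, Nqo1, a quinone reductase, in ductal cells, where 0.33 and 0.1% of all genes were called. Old against young had 0 calls (edgeR), and 13, 12 and 5 of 116 tests had an unadjusted p under 0.05 in HFHF-old against old, HFHF-old against young and old against young, or 11.2, 10.3 and 4.31% against the 7.44, 7.44 and 4.54% of all genes. Nqo1 was 7.65 and 11 UPM in young rats, 10.3 and 6.07 in old rats and 144 in HFHF-old 1, on 37 UMIs in that rat and 2 to 10 in the others. The log2 fold change was 4.06 against old (SE 0.48, edgeR adjusted p = 0.0134) and 3.99 against young (edgeR adjusted p = 0.0403). Ductal cells of HFHF-old 1 numbered 20, and the other HFHF-old rat held 2. Gclc, the catalytic subunit of glutamate-cysteine ligase, followed in alpha cells at 2.22 (edgeR adjusted p = 0.0669).

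Of the list of thioredoxin and glutaredoxin partners, 0 of 135 tests were called in any contrast (edgeR), with 9, 7 and 7 at an unadjusted p under 0.05 in HFHF-old against old, HFHF-old against young and old against young (6.67, 5.19 and 5.19%, against the same shares of all genes). Their log2 fold changes in HFHF-old against old were negative in 99 and positive in 36 tests, with a median of −0.31, and in old against young positive in 88 and negative in 47, with a median of 0.12. Sesn3, a sestrin, had the lowest adjusted p, at −2.28 in alpha cells (edgeR adjusted p = 0.0845). Of the list of oxidative folding enzymes of the endoplasmic reticulum, the compartment of Prdx4, 0 of 63 tests were called in any contrast (edgeR), with 3, 4 and 1 (4.76, 6.35 and 1.59%) at an unadjusted p under 0.05, the nearest being Hspa5, the chaperone BiP, at 1.13 in fibroblasts of HFHF-old against young (edgeR adjusted p = 0.338). In macrophage, T and NK cells the 3 lists gave 119 tests per contrast and 1 call in all, Hspa5 in macrophages of HFHF-old against young, at 1.65 (edgeR adjusted p = 0.0300), where 2.27% of all genes were called. Its level was 180 and 155 UPM in young rats, 205 and 142 in old rats and 545 in HFHF-old 1.

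The genes whose levels ran most like each member over 44 units of class and rat were ranked among 9122 genes by Pearson's r of log2(UPM + 1). Prdx4 was most like acinar secretory genes, LOC103689940 (r = 0.85), Cela1, a pancreatic elastase (0.84), and Sycn, the granule protein syncollin (0.84). Its r with the other members ran from −0.40 with Prdx2 to 0.12 with Prdx6. Prdx2 was most like Uqcrb (0.97), a subunit of respiratory complex III, followed by Psmg1 and Suclg1. Prdx1 followed Chmp2a (0.95), Polr2f and Taldo1, Prdx3 followed Nelfe (0.90), Trappc6a and Atp6v1d, and Prdx5 followed Atp6v0c (0.95), Nedd8 and Commd4.

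Prdx6 was closest to Marcksl1 (0.95), S100a11 and Ctdsp1, Txn1 to Myl6 (0.95), Tomm5 and RGD1597339, and Txnrd1 to Ttc14 (0.97), Cog3 and Gpkow. Between members the highest r was 0.89, for Prdx1 and Txn1. Units of 1 rat share a library, and units of 1 class share a hormone or enzyme denominator, so these values describe the pattern and carry no p. Free acinar and beta RNA in the droplets was estimated to account for up to 33.2% of Prdx4 UMIs in endothelial cells of HFHF-old 1 and for 17.9% in its beta cells.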

How the data were processed

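Gene counts were obtained from 1 filtered 10x matrix per rat (Chromium 3′ v3.1). Per the labels the reads were counted with Cell Ranger on Rnor_6.0, and the file headers name Cell Ranger 5.0.0. The values deposited by the authors are raw UMI counts per gene and barcode. Barcodes with fewer than 200 genes, in the top 1% of gene number or with over 25% mitochondrial UMIs were removed, after the limits in the study's methods.

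No cell annotation was used here. Cells were clustered with scanpy 1.11.5 and leidenalg 0.10.2 (2000 variable genes, members held out, resolution 1), and clusters were named from marker lists. PP cells, taken as cells of islet sub-clusters whose most abundant hormone was Ppy or Pyy, and the thresholds for naming were set after first results were seen, and a B or plasma cell cluster stayed unnamed. Doublets were kept in the main values and left out in an alternative, at 0.8% per 1000 barcodes. UMIs were summed per rat and class, with at least 10 cells, and every sum was expressed as UPM (UMIs in every 1000000). Levels were also computed without hormone and digestive enzyme genes in the total.

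Groups were compared with edgeR 4.0.16 (R 4.3.3, quasi-likelihood, TMM, filterByExpr, 1 fit per class with every rat of at least 10 cells, which was 6 rats in acinar, fibroblast, endothelial, immune, T and NK cells and 5 in the others), adjusted by Benjamini-Hochberg over all genes of the class, and with DESeq2 1.42.0 as an alternative. Where a group was 1 rat, the fit assumes that it varies as the others do. SE is the log2 fold change divided by the root of F. Neighbouring classes were compared within rats by exact two-sided sign-flip tests. The scripts were tested on simulated data. Statistics are printed for each member at its smallest unadjusted p, the 3 most alike genes per member (mean of at least 10 UPM), and up to 3 genes per list. The 9 members and the 3 pathway lists were chosen with earlier results of these data known, so they carry no independent weight. Txnrd1's order over classes was singled out after its values were seen. The labels number the rats 1 and 2 in each group and tie these numbers to no litter or day, so no block was used in the main fit.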

Additional observations from a re-analysis of the deposited data

Results flagged for a closer look

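Among classes with 2 rats in both groups, 6 combinations of member and contrast had all rats of a group higher in 1 class and lower in another, over 31 pairs of classes, and the pair furthest apart is given for each. These opposite directions were not tested. Groups that do not overlap were common among all genes, so the share of genes with the same order follows each value. Differences are between log2 ratios of mean UPM, first class minus second.

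Of old against young there were 4. Txnrd1 was higher in ductal cells (0.62, 16.2% of genes) and lower in alpha cells (−0.95, 42.9%), a difference of 1.57, and Prdx3 was higher in beta cells (0.65, 35.1%) and lower in endothelial cells (−0.43, 17.6%), a difference of 1.08. Txn1 was higher in macrophages (0.35, 19.4%) and lower in acinar cells (−0.44, 33.9%), a difference of 0.79, and Prdx6 was higher in ductal cells (0.15, 16.2%) and lower in alpha cells (−0.60, 42.9%), a difference of 0.75. With hormone and enzyme genes left out of the total, old overlapped with young for Prdx3 in beta cells (54.1 and 77.7 against 35.5 and 75.1 UPM) and for Prdx6 in alpha cells (27.7 and 44.99 against 41.6 and 46.4), so these 2 opposite orders were not seen with that total.

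Prdx4 stood out in the comparisons with HFHF-old. Against old rats, HFHF-old rats were higher in acinar cells (0.51, 8.02%) and lower in NK cells (−0.58, 18.3%), a difference of 1.09. Against young rats they were higher in acinar cells (0.52, 2.97%) and lower in endothelial cells (−0.75, 19.7%), a difference of 1.27. Of acinar cells, HFHF-old 2 held 52 and HFHF-old 1 lay largely in a cluster of its own.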

How the results depend on the processing

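Groups held 2 rats, and HFHF-old 1 rat in beta, alpha, PP and ductal cells. Member calls stayed at 0 under all alternatives tried except on leaving out HFHF-old 1, which leaves no HFHF-old rat in beta, alpha, PP and ductal cells and gave 2 calls in HFHF-old against old and 3 in HFHF-old against young, all in the pooled immune class, where 25.1 and 28.5% of all genes were called in that fit (ranges over left-out rats 0 to 2 and 0 to 3, and 0 in old against young). With the replicate block, member calls were 0 in each contrast. The numbers pair nothing by the labels. Deviations of log2 levels from the group mean correlated at −0.15 to 0.17 between same-numbered rats over 4 classes. The fold change printed for each of the 8 members at its lowest p over the 8 classes kept its direction under the alternatives run, as did Txnrd1 in HFHF-old against old in all 8 classes.

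The top class of 5 members changed in at least 1 setting. Without hormone and enzyme genes it went from ductal to beta for Prdx3 (main means 58.2 and 15.6 UPM), from immune to PP for Prdx5 and from endothelial to PP for Txnrd1 (75.4 and 58.9). Prdx2 in PP minus alpha cells (main 0.02) ranged from −0.0458 to 0.0846 on leaving out 1 rat, at −0.00407 without young 2, −0.0458 without old 1 and −0.0177 without old 2. Prdx5 in immune minus PP cells (main 0.31) became −0.39 without hormone and enzyme genes and −0.0225 at resolution 0.5. Txn1 in ductal minus endothelial cells (main 0.10) became −0.065 with doublets left out, and Txnrd1 in endothelial minus ductal cells (main −0.06) became 0.0252 there, and 0.00172, 0.0838 and 0.0854 without old 1, old 2 and HFHF-old 1 (range over left-out rats −0.26 to 0.09). Apart from the removal of hormone and enzyme genes, the cause was not tested. Acinar for Prdx4 and ductal for Prdx1 and Prdx6 were the top of the 8 classes in 14 of 14 settings, none of which split the immune class, and 2 to 4 members had a top class above all others in every rat. No share of all genes stands beside that last count.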
